A study of Mus musculus with 9 samples.

Results

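The core spliceosome components examined here were 48 listed genes for proteins of the small nuclear ribonucleoproteins (snRNPs), the splicing factors SF3a and SF3b, the factors that find the branch point and the 3′ splice site, the Prp19 complex, the splicing helicases and 2 serine- and arginine-rich matrix proteins. A gene was taken as measured where the array annotation gave a probe set that gene's symbol and no other. By that rule 39 of the 48 genes were measured, by 74 of 22626 probe sets, among 12393 named genes on the array. Snrpd1, Snrpd2, Snrpa and Lsm5 were carried only by probe sets assigned to several genes, and Snrpf, Lsm6, Prpf4, Ddx23 and Snrnp200 had no probe set under those symbols; these 9 genes were not analysed here. The samples were all of RAW 264.7, a continuously growing line of mouse macrophages. The 9 arrays came from 3 samples of untreated cells, 3 samples of cells kept for 18 h with 100 ng/ml of lipopolysaccharide (LPS), a component of bacterial outer membranes, and 3 samples labelled as over-expressing CstF-64 constitutively, for which no LPS is stated. CstF-64 is the RNA-binding subunit of the cleavage stimulation factor, which acts when the 3′ ends of mRNAs are cut and polyadenylated. The labels do not say how CstF-64 was expressed, from which promoter, in how many clones, or whether replicates were separate cultures, and no vector control is among the groups. The p-values therefore cover only the spread between these samples, and that spread may be technical.

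The spliceosome removes introns from pre-mRNA. It is assembled anew on each intron from U1, U2 and the preformed U4/U6.U5 tri-snRNP. Each of their small RNAs carries a ring of Sm proteins, or of LSm proteins in the case of U6, and each particle has proteins of its own. U1 pairs with the 5′ splice site, U2 with the branch point, and helicases then drive the exchange of RNA pairings that forms the catalytic centre and later takes the complex apart. In macrophages LPS is recognised by Toll-like receptor 4 and sets off a large programme of inflammatory transcription, whose primary transcripts pass through this machinery.

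The values are linear fluorescence intensities as deposited. Changes are differences of log2(intensity + 13), fitted over all 9 arrays with limma, with p-values adjusted by the Benjamini-Hochberg method over all 22626 probe sets. Only an adjusted p under 0.05 is called a rise or a fall. A gene is represented by its brightest probe set, and an intensity of 31.2, the highest of 27 bacterial control probe sets, is taken as the background limit. The brightest probe set lay above that limit on every array for 38 of the 39 genes, the exception being Dhx38 at 12 to 55.7. For Snrpe, Snrpg, Sf3a2, Dhx38 and Prpf19 the name of that probe set ends in _s_at or _x_at, which marks probes that can match related transcripts as well.

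Median intensities were 42.75 to 49.3 on the LPS arrays and 51.1 to 54.2 on the other arrays. LPS array 1 and CstF-64 array 1 correlated least with their own groups, at mean r of 0.966 and 0.975 across probe sets against 0.977 to 0.985 for the rest. Signal ratios between the 3′ and 5′ ends of actin, a sign of RNA quality, were 1.03 to 1.22 in all. All 10 macrophage markers were above the background limit on every array, and their summed intensity was 15249.5 to 20251.6 in untreated cells, 22974.4 to 24113.8 after LPS and 15609.8 to 20196.0 in the CstF-64 arrays. Within that list Adgre1, Itgam, Cd14 and Msr1 rose after LPS and Csf1r fell (log2 -0.70, adjusted p = 0.0047). In the CstF-64 arrays 0 of the 10 were called, but Adgre1 read 221.0 ± 10.7 against 510.6 ± 95.9 in untreated cells, with no overlap (log2 -1.15, adjusted p = 0.0777). Itgam (log2 -0.48, adjusted p = 0.576) and Fcgr3 (log2 -0.69, adjusted p = 0.701) were also lower without overlap, as were 6.02% of all named genes. The other macrophage markers overlapped. None of the 6 measured lymphocyte markers was above the limit on all arrays, with sums of 78.1 to 124.5. The sums for fibroblast and endothelial markers were 134.4 to 155.4, 183.0 to 209.5 and 109.8 to 151.6 in the same order of groups; Dcn, at 3.5 to 13.4 untreated and 34.4 to 61.7 after LPS, was the 1 of those 8 markers that rose, and the other 7 were not called. The sums for granulocyte and mast cell markers were 199.5 to 222.3, 190.7 to 337.4 and 185.5 to 252.1, and those for erythroid and platelet markers 232.6 to 313.4, 272.1 to 429.2 and 272.3 to 303.8. The part of these differences in the results was not tested. Cstf2, which encodes CstF-64, read 377.7 ± 18.0 in untreated cells, 221.5 ± 26.1 after LPS and 358.0 ± 38.4 in the arrays labelled CstF-64 (SD, n = 3), so its transcript was not higher where the label says it was over-expressed (log2 -0.08, 95% interval -0.36 to 0.20). A dimmer Cstf2 probe set, 1419644_at, read 116.3 ± 17.0, 118.7 ± 15.4 and 87.6 ± 8.57 in the same order; it did not share the fall after LPS (log2 0.03, adjusted p = 0.940), and its CstF-64 arrays all lay below the untreated ones without passing the test (log2 -0.36, adjusted p = 0.763).

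Transcripts of the core spliceosome were lower after LPS in a part of the machinery and were not seen to rise in any. Of the 39 measured genes, 14 fell and 0 rose after LPS, where 10.4% of all named genes fell and 6.63% rose (limma, adjusted p under 0.05). When the fit was limited to probe sets with a mean intensity above the background limit, 18.4% of 7996 named genes fell and 10.9% rose. In that fit the 14 were called, and Sf3a2, Ddx46 and Srrm1 as well. The genes that fell were Snrpb, Snrpd3, Snrpe and Snrpg of the Sm ring, Lsm2 and Lsm3 of the LSm ring, Sf3a1, Sf3a3 and Sf3b3 of U2, U2af1, Prpf8 and Eftud2 of U5, Prpf19 and the helicase Dhx15. The differences of those 14 ran from -0.43 to -1.60 on the log2 scale. The log2 difference was below 0 for 37 of the 39 genes, with a median of -0.39 against -0.03 over all named genes. All 3 LPS arrays lay below all 3 untreated arrays for 23 genes and above them for 1, Sf3b4, while such separation was found for 20.6% of all named genes downward and 13.3% upward. In bulk RNA, fewer cells of a type and less RNA per cell cannot be told apart, and intensities scaled to a common level show unequal change among genes, not absolute amounts.

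The shift was present on each LPS array. Over the 39 genes, the median difference from the untreated mean was -0.50, -0.42 and -0.43 on the log2 scale on LPS arrays 1, 2 and 3, against 0.08, 0.05 and -0.06 on the untreated arrays and -0.02, -0.08 and -0.09 on the CstF-64 arrays. LPS array 1, the one least like its group, was the lowest of its group for 21 of the 39 genes. Without it 15 genes were called, where 9.75% of all named genes fell and 6.37% rose. The number called depended on how arrays were scaled: with every array centred on its median the median of all named genes moved from -0.03 to 0.13, and 8 members fell and 0 rose, where 6.26% of all named genes fell and 10.6% rose. With quantile normalization 13 members fell and 0 rose, against 7.92% and 7.46% of all named genes. The 6 genes no longer called with median centring were Snrpe, Snrpg, Lsm3, Sf3a1, U2af1 and Prpf19 (adjusted p 0.0851 to 0.148). Relative to the median of all named genes, the members' median was -0.37 as deposited, a value that median centring leaves as it is by construction, and -0.38 with quantile normalization.

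**Figure D1:**
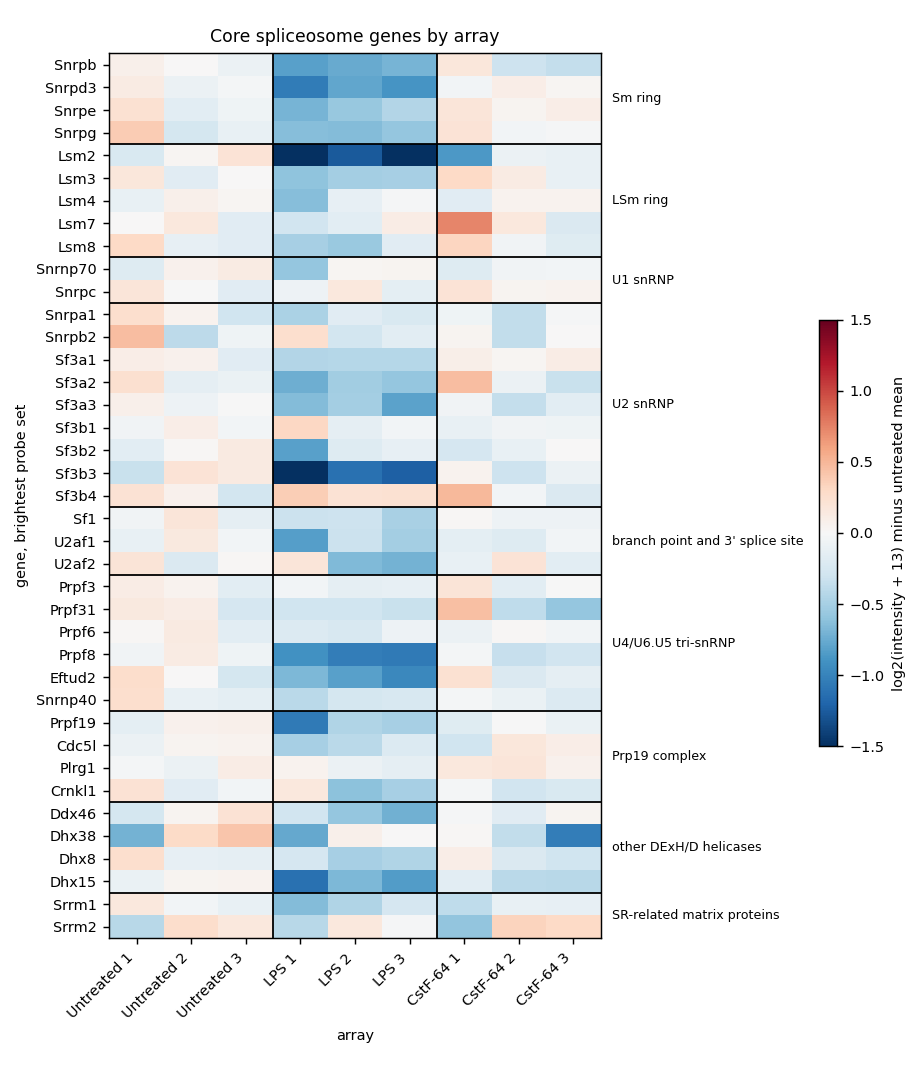
Each row is a core spliceosome gene, by its brightest probe set and grouped by role, and each column an array; the colour gives log2(intensity + 13) minus the mean of the 3 untreated arrays, limited at 1.5 either way. The LPS columns are blue for all 4 Sm genes and for Lsm2, Sf3b3, Prpf8 and Dhx15, while the CstF-64 columns resemble the untreated ones, with array 1 the highest of its group for 22 genes.

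**Figure D2:**
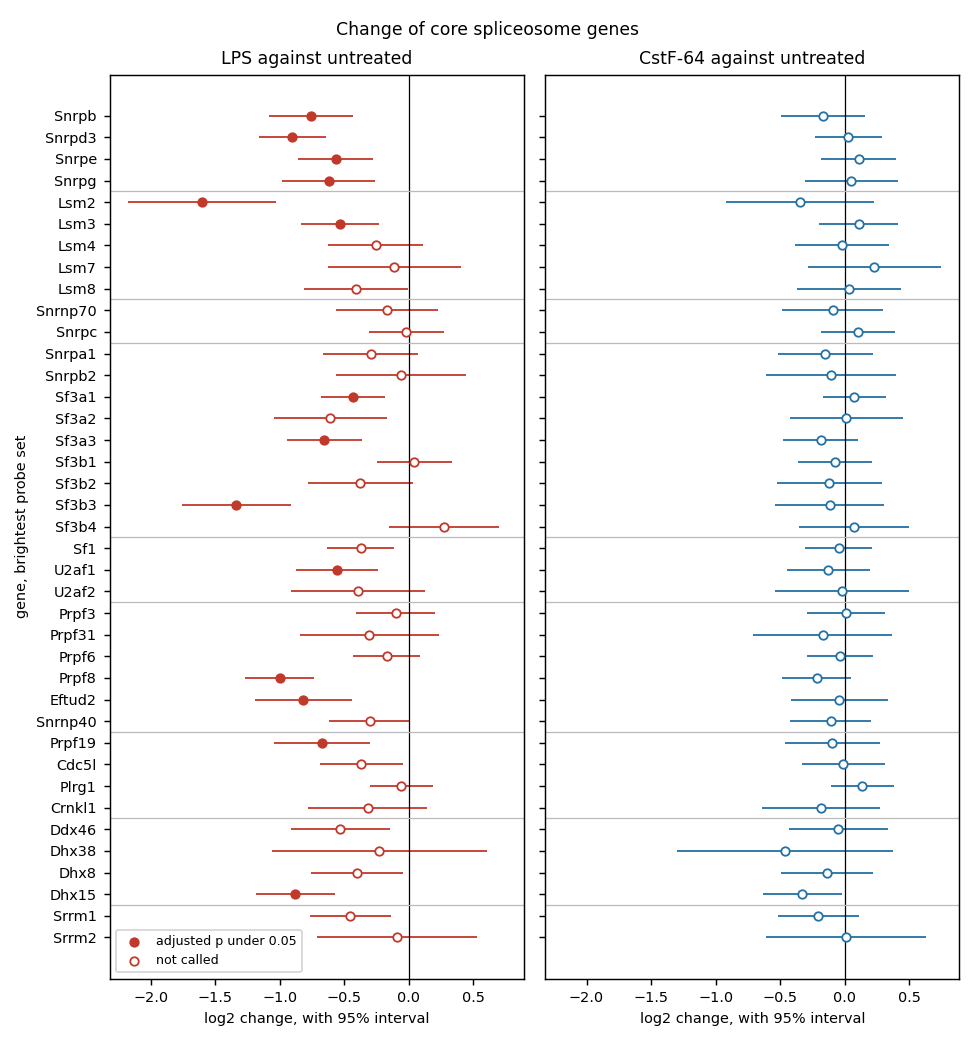
Points give the log2 change of each gene after LPS (left) and in the arrays labelled CstF-64 (right), both against the same 3 untreated arrays, and bars the 95% interval from limma; filled points have an adjusted p under 0.05. On the left 14 points are filled, all below 0, and on the right none is.

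To describe the promoters of the measured genes, the 250 bases before the first listed transcription start were read from RefSeq (GRCm38.p6). They were searched on both strands for 6 short motifs. These counts were made with the calls known and describe letters, not binding. No motif was found in every promoter of the genes that fell. Promoters were listed for 32 of the 39 measured genes, 12 of the 14 that fell and 20 of the 25 not called. CCGGAAG, 1 form of the sequence that factors of the ETS family recognise, occurred in 5 of the 12 promoters of genes that fell (41.7%), in 4 of the 20 of genes not called (20.0%) and in 9.13% of 17492 protein-coding promoters. Only these exact letters were counted, so a promoter without them can hold other forms. CCAAT occurred in 8 of 12 (66.7%), 6 of 20 (30%) and 36.3%, and the GC box GGGCGG in 5 of 12 (41.7%), 13 of 20 (65.0%) and 42.7%. TATAAA was found in 1 of the 12, 0 of the 20 and 12.4% of all promoters, the E-box CACGTG in 0 of the members' 32 and 6.64% of all, and the palindromic NRF1 motif, 10 bases long, in 0 of 12, 2 of 20 and 1.06%. The promoters of the 5 genes that fell and hold the ETS letters run as follows from 5′ to 3′ on the gene's strand, ending 1 base before the start, with CCGGAAG or its reverse complement CTTCCGG in capitals.
Sf3b3, chr8:110846804-110847053, - strand: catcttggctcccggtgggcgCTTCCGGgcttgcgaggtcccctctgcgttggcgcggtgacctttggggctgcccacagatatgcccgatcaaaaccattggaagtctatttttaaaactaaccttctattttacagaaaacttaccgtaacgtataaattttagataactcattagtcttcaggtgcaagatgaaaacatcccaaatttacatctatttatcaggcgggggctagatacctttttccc
Sf3a3, chr4:124714611-124714860, + strand: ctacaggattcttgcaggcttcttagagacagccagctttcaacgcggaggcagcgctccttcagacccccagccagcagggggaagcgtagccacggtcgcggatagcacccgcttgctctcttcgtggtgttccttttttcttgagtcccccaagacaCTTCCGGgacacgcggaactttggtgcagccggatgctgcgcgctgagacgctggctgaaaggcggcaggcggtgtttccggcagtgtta
Snrpg, chr6:86371290-86371539, + strand: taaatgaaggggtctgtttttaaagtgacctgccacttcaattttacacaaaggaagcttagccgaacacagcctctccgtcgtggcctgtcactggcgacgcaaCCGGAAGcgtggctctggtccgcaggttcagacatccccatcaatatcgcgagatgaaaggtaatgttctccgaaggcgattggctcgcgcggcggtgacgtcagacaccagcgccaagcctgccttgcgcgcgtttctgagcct
Prpf19, chr19:10894981-10895230, + strand: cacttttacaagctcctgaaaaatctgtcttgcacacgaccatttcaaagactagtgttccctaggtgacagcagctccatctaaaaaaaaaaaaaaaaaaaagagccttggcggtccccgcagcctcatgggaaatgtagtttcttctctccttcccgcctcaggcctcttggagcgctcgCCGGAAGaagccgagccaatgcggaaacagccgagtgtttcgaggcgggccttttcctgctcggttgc
Sf3a1, chr11:4160104-4160353, + strand: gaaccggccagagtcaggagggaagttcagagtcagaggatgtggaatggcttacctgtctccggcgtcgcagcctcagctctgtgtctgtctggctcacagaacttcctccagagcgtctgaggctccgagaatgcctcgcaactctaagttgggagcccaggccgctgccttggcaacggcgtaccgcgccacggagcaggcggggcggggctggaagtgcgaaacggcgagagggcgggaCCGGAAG
The letters begin 229 bases before the start in Sf3b3, 145 in Snrpg, 90 in Sf3a3, 68 in Prpf19 and 7 in Sf3a1, so they do not hold a common position.

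The Sm ring is the heptamer that closes around the U1, U2, U4 and U5 RNAs and marks them for return to the nucleus. All 4 measured of its 7 listed genes fell after LPS. Snrpd3, for the ring protein SmD3, read 460.9, 396.9 and 414.6 on the untreated arrays, 198.6, 241.2 and 223.7 on the LPS arrays and 411.1, 455.5 and 430.9 on the CstF-64 arrays. Every LPS array lay far below the other 6, which overlapped among themselves, and the fall was 0.90 on the log2 scale (log2 -0.90, SE 0.12, adjusted p = 0.00064). Of its other 2 probe sets, 1449629_s_at was not called (log2 -0.35, adjusted p = 0.302) and 1422885_at was under the background limit on all arrays; with the 3 averaged the difference was -0.38 and was not called (adjusted p = 0.0910). Snrpb, for SmB, read 870.6, 829.6 and 779.2 untreated, 464.8, 482.4 and 503.0 after LPS and 933.5, 661.5 and 641.6 in the CstF-64 arrays. Here too no LPS array reached another group, and the CstF-64 arrays were spread widely, with array 1 above and the other 2 below all untreated arrays (LPS log2 -0.76, SE 0.15, adjusted p = 0.0063). Snrpe, for SmE, read 1596.3, 1216.0 and 1301.5 untreated, 836.2, 916.0 and 1000.8 after LPS and 1548.1, 1400.6 and 1459.8 in the CstF-64 arrays. Its LPS arrays were again the lowest, by a smaller margin (log2 -0.57, SE 0.13, adjusted p = 0.0146), and the call was lost with median centring (adjusted p = 0.0867, the highest of 16 alternatives). Snrpg, for SmG, named here after its values were seen, had a log2 difference of -0.62 (adjusted p = 0.0266) that was no longer called without untreated array 1 or without any single LPS array (adjusted p 0.0548 to 0.0681). Its second probe set moved alike (log2 -0.78, adjusted p = 0.0073).

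The LSm proteins form the ring that binds the 3′ end of U6 RNA. Of 5 measured genes, Lsm2 and Lsm3 fell after LPS. Lsm2 read 190.8, 230.6 and 261.4 on the untreated arrays, 45.4, 87.0 and 70.8 after LPS and 118.8, 212.6 and 208.6 in the CstF-64 arrays. Its LPS arrays were all under the lowest of the other arrays, CstF-64 array 1, and its log2 difference of -1.60 (SE 0.26, adjusted p = 0.0024) was the most negative among the 39 genes. Lsm3 read 433.0, 338.6 and 384.7 untreated, 248.8, 266.6 and 268.1 after LPS and 475.9, 419.7 and 355.5 in the CstF-64 arrays. The LPS arrays lay close together below all others (log2 -0.53, SE 0.14, adjusted p = 0.0251), but the call ended without untreated array 1 or 3 or without any 1 LPS array (adjusted p 0.0540 to 0.0862). Lsm4, Lsm7 and Lsm8 were not called, with log2 differences of -0.26, -0.11 and -0.41 and adjusted p of 0.35, 0.815 and 0.166. The subunits of this ring thus ranged from -1.60 to -0.11; whether they differed from each other was not tested.

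Neither measured gene specific to U1, the snRNP that first recognises the 5′ splice site, was called. Snrnp70, for the U1 protein that contacts SR proteins, read 292.9, 353.4 and 367.5 untreated, 220.5, 343.5 and 347.3 after LPS and 292.0, 325.1 and 327.7 in the CstF-64 arrays. The groups overlapped, LPS array 1 alone lying below the untreated range (log2 -0.17, 95% interval -0.56 to 0.22, adjusted p = 0.602). Snrpc, for the small zinc-finger protein of U1, had a log2 difference of -0.02 (95% interval -0.31 to 0.27).

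U2 binds the branch point with the help of SF3a and SF3b. Of its 9 measured genes 3 fell after LPS, where 10.4% of all named genes fell, or 18.4% of those above the background limit. All 3 belong to SF3a or SF3b, as does every measured U2 gene except Snrpa1 and Snrpb2. Sf3b3, a large scaffold subunit of SF3b, read 421.1, 619.3 and 587.3 untreated, 161.0, 239.3 and 220.7 after LPS and 556.2, 429.3 and 502.2 in the CstF-64 arrays. The highest LPS array was well under the lowest array of either other group (log2 -1.34, SE 0.19, adjusted p = 0.00121). Sf3a3, an SF3a subunit, read 239.3, 214.2 and 225.0 untreated, 138.8, 154.4 and 124.5 after LPS and 216.8, 174.0 and 202.0 in the CstF-64 arrays. Its LPS arrays were separate from both other groups (log2 -0.66, SE 0.13, adjusted p = 0.0075). Sf3a1, the SF3a subunit that touches U1 as well as U2, read 332.1, 324.8 and 273.2 untreated, 224.0, 227.2 and 226.1 after LPS and 329.9, 314.5 and 334.6 in the CstF-64 arrays. The 3 LPS arrays were nearly equal and below the rest (log2 -0.43, SE 0.11, adjusted p = 0.0250). That call ended without untreated array 1 or 2 or LPS array 2 or 3 (adjusted p 0.0577 to 0.0972) with quantile normalization (0.0547) and with its probe sets averaged (0.0600).

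The other 6 U2 genes were not called by their brightest probe set. Sf3a2, the remaining SF3a subunit, had a log2 difference of -0.61 (adjusted p = 0.0623) with every LPS array, 442.5 to 515.5, below every untreated array, 674.7 to 882.9. Sf3b2 had -0.38 (adjusted p = 0.211), Snrpa1 -0.29 (0.283) and Snrpb2 -0.06 (0.905), the latter pair encoding the U2 proteins A′ and B″. Sf3b4 was the gene whose LPS arrays, at 926.8, 838.2 and 841.5, all lay above the untreated ones at 835.7, 748.1 and 588.2, by a margin that did not pass the test (log2 0.27, adjusted p = 0.402). Together with Sf3b1, whose probe sets are described separately, it was 1 of the 2 genes with a difference above 0.

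Among the factors that find the 3′ end of the intron, U2af1, which reads the AG at the 3′ splice site, fell after LPS. It read 408.4, 488.6 and 428.0 untreated, 241.7, 348.7 and 304.6 after LPS and 396.0, 384.0 and 428.4 in the CstF-64 arrays. No LPS array reached the other groups (log2 -0.56, SE 0.14, adjusted p = 0.0253), yet the call ended without untreated array 2 or 3 or LPS array 3 (adjusted p 0.0605 to 0.101). U2af2, its partner on the polypyrimidine tract, was not called: LPS array 1 read 515.2, inside the untreated range of 385.9 to 519.7, while LPS arrays 2 and 3 read 281.1 and 271.1 (log2 -0.39, adjusted p = 0.310). Without LPS array 1 it was called lower (adjusted p = 0.0210). Sf1, which holds the branch point before U2 arrives, had a log2 difference of -0.37 (adjusted p = 0.0548) with no overlap between LPS and untreated arrays.

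In the U4/U6.U5 tri-snRNP, 2 of 6 measured genes fell, and both encode U5 proteins at the catalytic centre. Prpf8, the large scaffold on which that centre is built, read 871.9, 987.2 and 866.5 untreated, 476.9, 435.6 and 428.7 after LPS and 891.8, 712.8 and 740.6 in the CstF-64 arrays. The LPS arrays formed a tight group far below all the others (log2 -1.0, SE 0.12), with the smallest adjusted p of the 39 genes, 0.000429. Eftud2, the U5 GTPase that works with Prpf8, read 602.1, 502.0 and 416.4 untreated, 309.1, 279.6 and 250.4 after LPS and 590.3, 429.2 and 455.0 in the CstF-64 arrays. Untreated and CstF-64 arrays overlapped, and all LPS arrays were lower (log2 -0.82, SE 0.17, adjusted p = 0.0087). Of its other 3 probe sets, 1416557_a_at fell (log2 -0.89, adjusted p = 0.0063), 1456107_x_at had the same difference and was not called (-0.89, 0.0673), and 1438836_at was under the background limit on 8 arrays. With all 4 averaged the difference was -0.47 and was not called (adjusted p = 0.123). Prpf3 and Prpf31, both U4/U6 proteins, Prpf6, which bridges U5 to U4/U6, and Snrnp40 of U5 were not called, with log2 differences of -0.10, -0.31, -0.17 and -0.30. Their adjusted p-values were 0.700, 0.466, 0.377 and 0.188.

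The Prp19 complex joins as the spliceosome is activated. Prpf19, its ubiquitin ligase, read 373.7, 435.6 and 439.0 untreated, 191.4, 299.2 and 289.3 after LPS and 364.9, 412.5 and 386.6 in the CstF-64 arrays. LPS array 1 was the lowest and none of the 3 overlapped another group (log2 -0.67, SE 0.17, adjusted p = 0.0210). The call ended without untreated array 2 or 3 (adjusted p 0.0773 and 0.0714) and with its probe sets averaged (0.153). Cdc5l, Plrg1 and Crnkl1 of the same complex were not called, at log2 -0.37, -0.06 and -0.32 (adjusted p = 0.120, 0.80 and 0.355). For Crnkl1, LPS array 1 at 195.9 lay among the untreated arrays at 154.1 to 204.8 and the other 2 LPS arrays did not, and without that array it was called lower (adjusted p = 0.0384).

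Of the 4 measured helicases outside the tri-snRNP 1 fell. Dhx15, which releases the intron lariat and takes the spent complex apart, read 1027.4, 1139.6 and 1149.5 untreated, 501.5, 684.8 and 609.6 after LPS and 991.5, 829.6 and 821.4 in the CstF-64 arrays. The 3 groups did not overlap, the LPS arrays being lowest and the CstF-64 arrays between (LPS log2 -0.88, SE 0.14, adjusted p = 0.0021). Ddx46, which acts on U2 before the branch point is bound, had -0.53 (adjusted p = 0.0646) and was called lower without untreated array 1 or LPS array 1 (adjusted p 0.0309 and 0.0439). Dhx8, which frees the spliced mRNA, had -0.40 (adjusted p = 0.127), and Dhx38, dim on several arrays, -0.23 (adjusted p = 0.763).

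Neither gene of the SR-related matrix proteins, large coactivators that bridge splicing factors on exons, was called. Srrm1 read 460.1, 401.7 and 380.1 untreated, 257.2, 298.4 and 343.6 after LPS and 313.2, 379.6 and 379.1 in the CstF-64 arrays. The LPS and the CstF-64 arrays each lay below all untreated arrays, the former by more (LPS log2 -0.45, SE 0.14, adjusted p = 0.0540). Without LPS array 3 the difference after LPS was called (adjusted p = 0.0453). Srrm2 varied widely within every group, from 173.9 to 287.9 in untreated cells, and had a log2 difference of -0.09 (95% interval -0.71 to 0.53).

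**Figure D3:**
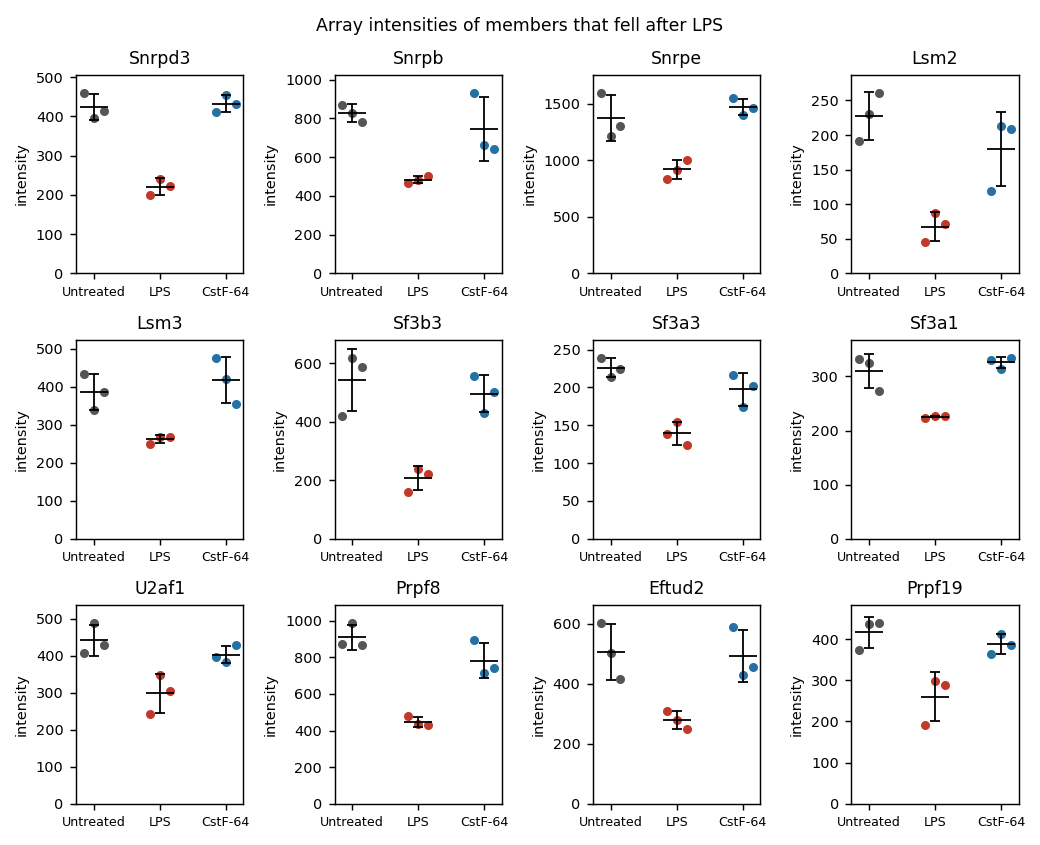
Points give the deposited intensity on each array for 12 of the 14 genes that fell after LPS, with the mean as a horizontal line and the SD (n = 3) as a bar; every vertical axis starts at 0. In each panel all LPS points lie below all untreated and all CstF-64 points.

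In the arrays labelled CstF-64 no core spliceosome gene was seen to differ from untreated cells. Of 39 genes 0 were called by limma, where 0.169% of all named genes were called lower and 0.105% higher, and 1, Dhx15, had an unadjusted p under 0.05. The median log2 difference was -0.05 against 0.01 over all named genes, and single genes ranged from -0.46 to 0.23. The 95% intervals, which are not adjusted for the number of tests, extended 0.36 to either side at the median gene. A call needed more than an interval clear of 0, so differences larger than 0.36 could also go uncalled with 3 arrays a group. The macrophage marker Adgre1, at log2 -1.15, was not called in this comparison. The 3 genes with the smallest adjusted p were Dhx15, Prpf8 and Srrm1. Dhx15 had a log2 difference of -0.33 (95% interval -0.63 to -0.02, adjusted p = 0.738), Prpf8 of -0.22 (adjusted p = 0.879) and Srrm1 of -0.21 (adjusted p = 0.936). For Dhx15 and Srrm1 the 2 groups did not overlap, the CstF-64 arrays being lower, and no gene was separated upward; over all named genes 6.02% were separated downward and 7.4% upward. Without CstF-64 array 1, which stood apart from its group, 0 genes were called as well.

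Set against the LPS arrays directly, the CstF-64 arrays were higher for 13 of the 39 genes and lower for 0, where 9.47% of all named genes were higher and 6.36% lower. In a fit of probe sets with a mean above the background limit, 16.4% of 7996 named genes were higher and 10.1% lower. All 13 were among the 14 that fell after LPS. This comparison and the one between LPS and untreated cells use the same LPS arrays, so the 2 counts are not separate evidence. The largest differences were those of Lsm2 (log2 1.25, SE 0.26, adjusted p = 0.0095), Sf3b3 (1.22, SE 0.19, adjusted p = 0.0021), Snrpd3 (0.93, SE 0.12, adjusted p = 0.000579), Prpf8 (0.78, SE 0.12, adjusted p = 0.0020) and Eftud2 (0.78, SE 0.17, adjusted p = 0.0123). U2af1 was the gene of the 14 that was not called (log2 0.43, adjusted p = 0.0745), and it was called without LPS array 2 (adjusted p = 0.0403). CstF-64 and LPS arrays did not overlap for 19 genes, all higher in the CstF-64 arrays, against 19.6% of all named genes.

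Several of these 13 calls were lost when a single array was left out, a fit that also has fewer arrays to test with. Snrpb was not called without any 1 of the LPS arrays (adjusted p 0.0521 to 0.0562), though its log2 difference stayed at 0.56 to 0.62. The call of Snrpg ended without LPS array 2 or 3 or CstF-64 array 1 or 3 (0.0532 to 0.0559), that of Sf3a1 without CstF-64 array 3 (0.0563) and that of Sf3a3 without LPS array 1 or 3 or CstF-64 array 1 or 3 (0.0568 to 0.125). Eftud2 was not called without LPS array 3 (0.0504), and Dhx15 without that array or any CstF-64 array (0.0524 to 0.0629). Prpf19 was not called without LPS array 1 or 3 or any CstF-64 array (0.0555 to 0.136). Its log2 difference was 0.38 without LPS array 1 and 0.53 to 0.66 in the others of those fits. Without LPS array 3, 7 of the 39 genes were called.

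Of the 39 genes, 18 had 1 probe set and 21 had 2 or more, which read different stretches of a gene's transcripts. At the level of probe sets, 22 of 74 fell after LPS and 0 rose, where 10.7% and 5.93% of all probe sets did. The 35 dimmer probe sets supplied 8 of the falls. For 5 genes only a dimmer probe set fell: Cdc5l (1428092_at, log2 -0.55, adjusted p = 0.0425), Ddx46 (1424571_at, -0.87, 0.0472), Sf3b1 (1418561_at, under the background limit on all LPS arrays, 0.0231), Snrpa1 (1417352_s_at, -0.75, 0.0167) and Snrpb2 (1426613_a_at, -0.49, 0.0431). Each of these 5 calls was lost in some fits without a single array, which have fewer arrays to test with (adjusted p up to 0.149). The call was lost for Cdc5l without untreated array 2 or 3 or any LPS array, for Ddx46 and Sf3b1 without any untreated array or LPS array 1 or 3, for Snrpa1 without untreated array 1 or 2 or LPS array 3, and for Snrpb2 without untreated array 1 or 3 or LPS array 2 or 3. For Snrpa1 the brightest probe set read 333.1 to 415.5 after LPS and overlapped the untreated range of 379.2 to 562.2, whereas 1417352_s_at read 253.4 to 421.7 after LPS and 507.5 to 558.9 untreated.

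Whether the probe sets of a gene moved unequally was tested by F (diffSplice in limma) in 4956 genes with 2 or more probe sets, of which 5.85% were called for LPS against untreated cells, 0% for CstF-64 against untreated cells and 5.83% for CstF-64 against LPS. Of the 21 core genes tested, 1, Sf3b1, was called in both comparisons with the LPS arrays, a share near that of all tested genes. Sf3b1 encodes the SF3b subunit that clamps the paired branch point, and it is often mutated in myelodysplastic disease. Its brightest probe set, 1449138_at, read 1034.6, 1154.4 and 1046.5 untreated, 1334.9, 981.0 and 1045.8 after LPS and 996.2, 1038.5 and 1032.4 in the CstF-64 arrays. The 3 groups overlapped (LPS log2 0.04, 95% interval -0.24 to 0.33, adjusted p = 0.879), as they did for 1418562_at (log2 -0.03, adjusted p = 0.951). The third, 1418561_at, read 54.0, 50.9 and 73.3 untreated, 8.4, 20.6 and 14.8 after LPS and 27.4, 69.2 and 103.9 in the CstF-64 arrays. All its LPS arrays were under the background limit, which makes it at least 1.88-fold lower after LPS (adjusted p = 0.0231).

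The adjusted p for unequal movement of Sf3b1 was 0.0236 for LPS against untreated cells, 1.00 for CstF-64 against untreated cells and 0.0144 for CstF-64 against LPS. The first of these calls ended without untreated array 1, 2 or 3 or LPS array 1 or 3 (adjusted p 0.0541 to 0.155) and with quantile normalization (0.0861). The last ended without LPS array 1 or CstF-64 array 2 or 3 (adjusted p 0.10 to 0.128). Eftud2 and Snrpd3 came next for LPS against untreated cells (adjusted p = 0.0783 and 0.0912). The Eftud2 probe set 1438836_at read 7.2 to 12.4 on 8 arrays and 81.5 on LPS array 1, while the other 3 probe sets of the gene were lower on all LPS arrays than on any untreated array. Where in the transcripts these probes lie was not used here.

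**Figure D4:**
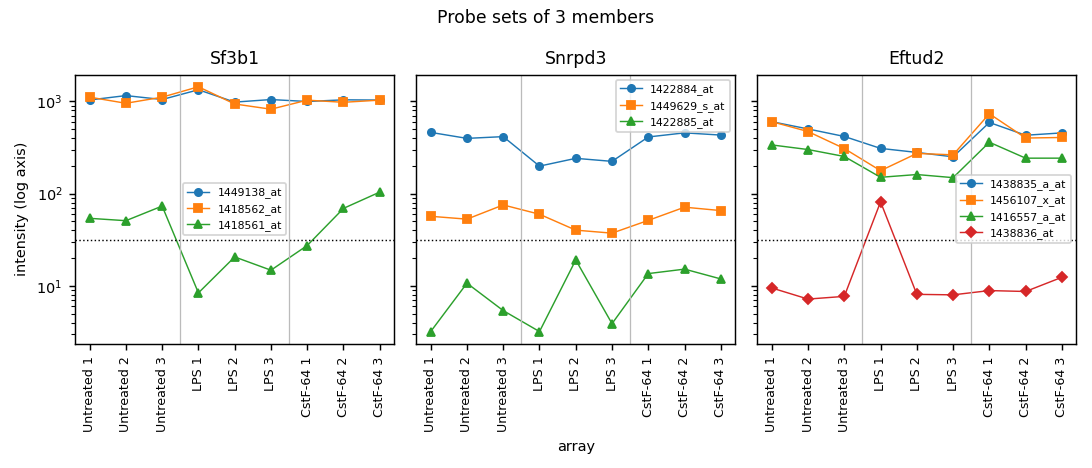
Lines give the intensity of every probe set of Sf3b1, Snrpd3 and Eftud2 over the 9 arrays, on a log axis, with the background limit of 31.2 dotted. For Sf3b1 1 probe set drops below the limit on all LPS arrays while the other 2 stay between 822.0 and 1438.4, and for Eftud2 the lowest probe set peaks at 81.5 on LPS array 1.

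Beyond the core, 78 further genes of splicing were listed and 59 measured: other spliceosomal proteins, factors of snRNP assembly, the exon junction complex, the minor spliceosome and LSm proteins outside U6. After LPS 12 of the 59 (20.3%) fell and 3 (5.08%) rose, against 10.4% and 6.63% of all named genes, with a median log2 difference of -0.26, and in the arrays labelled CstF-64 0 were called by limma. In a fit of probe sets with a mean above the background limit, 14 fell after LPS (23.7%) and 4 rose (6.78%). Of the 7996 named genes in that fit 18.4% fell and 10.9% rose. The split between falls and rises turned with the scaling. With quantile normalization 6 fell (10.2%) and 3 rose (5.08%), against 7.92% and 7.46% of all named genes, and with median centring 4 fell (6.78%) and 5 rose (8.47%), against 6.26% and 10.6%, so under those scalings the shares were near those of the array as a whole. Without single arrays 7 to 13 were called, 8 without untreated array 1, 7 without untreated array 2 and 8 without LPS array 3.

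Assembly of snRNPs held 5 of the 12 falls, from 12 measured genes. Wdr77, the partner of the arginine methyltransferase that modifies Sm proteins, read 570.7, 495.1 and 406.9 untreated and 171.9, 284.2 and 213.6 after LPS. Coil, for coilin, the scaffold of the Cajal bodies in which snRNPs mature, read 126.2, 135.8 and 100.2 untreated and 50.6, 69.2 and 54.1 after LPS. In both genes every LPS array lay below every untreated array (log2 -1.11, adjusted p = 0.0099, and log2 -0.91, adjusted p = 0.0078). Ddx20, Tgs1 and Sart3, named here after their values were seen, were the others that fell, and each call was lost in at least 1 fit without a single array. Each was also lost with median centring. Tgs1 and Sart3 were lost with quantile normalization too (limma, adjusted p 0.0647 to 0.102 in these fits of Tgs1 and Sart3). Of 36 other spliceosomal proteins 5 fell (13.9%) and 2 rose, near the shares of all named genes, 10.4% and 6.63%. Aqr, an intron-binding helicase, read 284.5 to 295.0 untreated and 170.9 to 206.5 after LPS (log2 -0.58, adjusted p = 0.0085). It was not called where the probe sets of a gene were averaged (adjusted p = 0.525). Prpf4b, a kinase that acts on the tri-snRNP, read 109.4 to 164.8 untreated and 61.7 to 72.0 after LPS (log2 -0.85, adjusted p = 0.0091).

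In the exon junction complex Acin1 fell (log2 -0.67, adjusted p = 0.0206), a call that ended without untreated array 1 or 2 or LPS array 3 (adjusted p 0.0543 to 0.0822), and Rnps1 was not called (log2 -0.26, adjusted p = 0.191). In the minor spliceosome, which removes a rare class of introns, Snrnp25 read 158.7, 123.6 and 139.7 untreated and 90.9, 88.1 and 86.5 after LPS. Its groups did not overlap (log2 -0.59, adjusted p = 0.0112), though the call ended with quantile normalization and median centring (adjusted p = 0.0600 and 0.0513), while Rnpc3 did not pass (log2 -0.75, adjusted p = 0.0528) and was called lower without untreated array 3 (0.0264) or LPS array 2 (0.0492). The 3 genes that rose were Prpf38a (log2 0.46, adjusted p = 0.0376), Cwc15 (log2 0.64, adjusted p = 0.0404) and Lsm10. The first and second of these calls were lost in 5 of 6 fits without a single array (adjusted p up to 0.135 and 0.138). Lsm10, a ring protein of the U7 snRNP that trims histone mRNAs, read 190.3, 180.8 and 157.0 untreated, 299.1, 290.3 and 301.5 after LPS and 249.3, 221.1 and 207.8 in the CstF-64 arrays. Its LPS arrays were the highest of all 9 (log2 0.72, adjusted p = 0.0030), opposite in direction to the 4 Sm genes and to Lsm2 and Lsm3; Lsm1, of the cytoplasmic LSm ring that acts in mRNA decay, was not called (log2 -0.30, adjusted p = 0.158).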

How the data were processed

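Total RNA of 9 samples was hybridised to Affymetrix mouse arrays, 1 per sample. The authors deposited 1 linear intensity per probe set and array; the sources used here do not give the software or background correction. The deposited intensity values showed a common scaling: the mean after trimming 2% at each end was 150.05 to 150.07 on all arrays. Of 22690 probe sets, 64 controls were left out. The platform annotation gave 20380 probe sets 1 gene, 691 several and 1555 none; members were matched by its own symbols, other genes by symbols updated to GRCm38.p6.

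Values were taken as log2(intensity + 13), 13 being 0.25 of the median of all values, 50.2 rounded; changes of dim probe sets are understated on this scale. They were fitted with 1 mean per group over 9 arrays in limma 3.58.1 (lmFit, eBayes with intensity trend; R 4.3.3), with two-sided tests at an adjusted p of 0.05. For a group with no array over 31.2, "at least" folds compare the brighter group's geometric mean with 31.2. The fit was tested on simulated data. Each comparison was repeated under 16 alternatives of scaling, pseudocount, filter, weighting, replicate block, samples and probe set summary. The number of arrays limits the precision.

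Members and gene lists were chosen with earlier results of these data known, so counts over them are descriptions. Full values were given by rule: up to 3 called members per role by adjusted p after LPS, or the first where none was called; the first 3 for CstF-64; members called for unequal probe sets; up to 2 genes of each further list; and Cstf2. Genes named outside this rule were chosen after their values were seen.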

Additional observations from a re-analysis of the deposited data

Results flagged for a closer look

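4 probe sets assigned to several genes, each including a listed spliceosome gene, were outside the comparisons above and carried signal above the background limit of 31.2 on every array. Their lowest intensities over the 9 arrays were 270.0 for 1416336_s_at, 344.8 for 1417274_at, 56.0 for 1418656_at and 607.0 for 1452680_at. Mean intensities in untreated, LPS and CstF-64 arrays were 576.4, 332.4 and 543.4 for the first, 524.9, 381.0 and 491.1 for the second, 196.2, 66.4 and 214.9 for the third and 872.9, 649.3 and 857.3 for the last (n = 3 each). In all 4 every LPS array lay below every untreated array, as was found for 20.6% of all named genes by their brightest probe set. The difference is described here without a test, and which of its genes each probe set registers is not known.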

How the results depend on the processing

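Over 16 alternatives for each comparison no direction of a called value reversed. The 14 members called for LPS against untreated cells became 8 with median centring and 11 to 15 without single arrays. With array weights the 14 stayed called, and Sf3a2, Sf1, U2af2, Crnkl1, Ddx46, Dhx8 and Srrm1 were called as well. In that fit 13.9% of all named genes fell and 8.62% rose. For CstF-64 against LPS the 13 became 6 with median centring and 7 to 12 without single arrays, 7 without LPS array 3. With array weights the 13 stayed called, and Sf1, U2af2, Cdc5l and Ddx46 were called as well. In that fit 15.1% of all named genes were higher and 9.07% lower. For CstF-64 against untreated cells 0 were called in every alternative. Snrpb, Lsm2, Sf3a3, Sf3b3, Prpf8 and Dhx15 were called after LPS in all 16, and 8 were lost in some, with adjusted p up to 0.153; Snrpd3 and Eftud2 were lost where the probe sets of a gene were averaged (0.0910 and 0.123). Further splicing genes called after LPS, 15 as deposited, were 9 with quantile normalization, 9 with median centring and 7 to 13 without single arrays. Members with unequal probe sets for LPS against untreated cells, 1 as deposited, were 0 with quantile normalization, 2 with array weights and 0 to 2 without single arrays; at 4 times the pseudocount Sf3b1 was lost (adjusted p = 0.110). For CstF-64 against LPS they were 0 with quantile normalization, 0 with those 2 groups alone and 0 to 1 without single arrays. The cause of these losses was not tested. With the replicate number as a block, 14, 0 and 12 members were called for LPS and CstF-64 against untreated cells and CstF-64 against LPS, Sf3a3 being lost (adjusted p = 0.0548), and 15 further genes. Whether the shared numbers pair the arrays was not settled. After removal of group means, same-numbered arrays correlated at r of -0.063 to 0.158 and differently numbered ones at -0.236 to 0.196. The best match in another group had the same number in 9 of 18 cases, and with 3 arrays a group this cannot exclude a pairing.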
